A study of Mus musculus with 17 samples.

Results

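The 6 C-type lectin genes followed here were measured by RNA-seq of Kupffer cells (KCs), the macrophages that reside in the liver, sorted from mice. They are the 5 Cd209 genes Cd209a, Cd209b, Cd209d, Cd209f and Cd209g, and Cd207, which encodes langerin. The members were taken by symbol from the tables of gene values, which list 25124 genes each, and all 6 had a row in each of the 3 tables. The list was chosen by measured values of these samples, namely a lower value of Cd209g with tumour and a higher value of Cd207 with Id3 deletion, so that these changes are given below as descriptions without a test.

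C-type lectins of this kind are membrane proteins that bind sugars in a calcium-dependent way. The mouse Cd209 genes are a multigene family related to human CD209 (DC-SIGN), a receptor of dendritic cells and macrophages for mannose and fucose on microbes, glycoproteins and other cells. In mice, Cd209a encodes the protein also called CIRE or SIGNR5, Cd209b encodes SIGNR1, the receptor of marginal zone macrophages of the spleen for bacterial polysaccharides, and Cd209d encodes SIGNR3. Cd209g and Cd209f encode SIGNR7 and SIGNR8, whose ligands are less well described. Langerin is known from Langerhans cells of the epidermis, in which it takes up mannosylated ligands and forms Birbeck granules. KCs are known for several C-type lectins, among them CLEC4F, the mannose receptor CD206 and the lectins of the Cd209 cluster.

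The study sorted KCs from the liver in 3 settings, each deposited as a table that was normalized by itself. TIM4+CD206+ KCs, the main subset, came from 3 untreated tumour-free livers and from 3 livers at 2 weeks after intraportal injection of tumour cells. TIM4+CD206hi KCs, the minor subset, came from 3 untreated tumour-free and 3 tumour-bearing livers of the same kind. KCs of 3 Id3 f/f mice, in which the floxed gene was intact, and of 2 Clec4f cre Id3 f/f mice, in which it was deleted by cre recombinase expressed from Clec4f, were both without tumour. Age, sex and whether cells of several animals were pooled were not given in the sources used here. The deposited values have the shape of a regularized log2 transformation, which draws genes with few reads towards their mean and so understates their differences. Differences below are those of log2 means. P-values measure the spread between these samples only, and in bulk samples fewer cells that express a gene and less RNA per cell cannot be told apart.

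All samples held the defining KC genes. The summed level of 10 KC markers was 21.12 to 21.70 (log2) in tumour-free and 20.85 to 20.96 in tumour-bearing TIM4+CD206+ KCs, 20.14 to 20.60 and 19.93 to 20.09 in TIM4+CD206hi KCs, and 20.51 to 20.55 and 20.33 to 20.35 in KCs with intact and with deleted Id3. Genes of other cells were present as well and moved with tumour. Of 8 epithelial (tumour) cell markers 7 were tested and all 7 were called higher in both subsets, and 4 of 8 neutrophil markers were called higher and 5 of 8 hepatocyte markers lower in each. The epithelial sum was 10.68 to 11.63 without and 15.02 to 15.24 with tumour in TIM4+CD206+ KCs, and 10.51 to 11.16 and 15.43 to 15.51 in TIM4+CD206hi KCs, and the part of these cells in the values of the members was not tested. Without tumour, the summed level of 12 sinusoidal endothelial markers was 14.06 to 15.05 in the main subset, against 17.87 to 18.46 in the minor subset. Calls in the other lists were 2 lower (Timd4 and Adgre1) of the KC markers in TIM4+CD206+ KCs, 0 in TIM4+CD206hi KCs, and 2 higher and 5 lower with Id3 deletion. For the endothelial markers they were 0, 3 lower, and 1 higher and 1 lower in the same order, for 10 dendritic cell markers 1 higher, 1 higher and 1 lower, and 0, for 6 monocyte markers 3 higher, 2 higher and 1 lower, for 5 B cell markers 3 lower, 2 lower and 0, for 6 stellate cell markers 0, 2 lower and 0, and for 6 T or NK cell markers 0 throughout. With Id3 deletion no epithelial, neutrophil or hepatocyte marker was called. Among all genes tested, 2.55% were called higher and 0.998% lower in TIM4+CD206+ KCs. The shares were 5.21% and 2.03% in TIM4+CD206hi KCs, and 3.08% and 3.37% with Id3 deletion. Within a table, the lowest correlation between samples across genes was 0.984.

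The 5 Cd209 members lie in 1 cluster on chromosome 8 (GRCm38), which spans 394312 bases from Cd209a to Cd209g. Cd209a (chr8:3743395-3748984), Cd209d (chr8:3871824-3878548), Cd209b (chr8:3917655-3926841) and Cd209f (chr8:4102784-4105838) are on the minus strand, while Cd209g (chr8:4134246-4137707) is on the plus strand and faces away from Cd209f across 28408 bases. Clec4g, which encodes the sinusoidal endothelial lectin LSECtin, and Fcer2a, which encodes the IgE receptor CD23, are the next lectin genes on the side of Cd209a. Cd207 (chr6:83671207-83677857, minus strand) lies apart from them on chromosome 6, at 15091 bases from Clec4f (chr6:83644542-83656116, minus strand), the gene that marks KCs and whose locus drives cre here.

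Cd209f and Cd209g are near copies of each other. The 250 bases before the start of each (RefSeq, GRCm38.p6) are shown because they share a run of 154 identical bases, which is in capitals. It ends at the annotated start of Cd209f and at 14 bases before that of Cd209g.
Cd209f: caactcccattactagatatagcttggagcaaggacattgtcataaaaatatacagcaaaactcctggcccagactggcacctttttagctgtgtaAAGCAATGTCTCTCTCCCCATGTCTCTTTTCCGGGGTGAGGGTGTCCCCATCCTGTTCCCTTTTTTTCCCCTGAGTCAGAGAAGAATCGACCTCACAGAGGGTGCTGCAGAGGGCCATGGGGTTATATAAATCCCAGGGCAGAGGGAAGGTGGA
Cd209g: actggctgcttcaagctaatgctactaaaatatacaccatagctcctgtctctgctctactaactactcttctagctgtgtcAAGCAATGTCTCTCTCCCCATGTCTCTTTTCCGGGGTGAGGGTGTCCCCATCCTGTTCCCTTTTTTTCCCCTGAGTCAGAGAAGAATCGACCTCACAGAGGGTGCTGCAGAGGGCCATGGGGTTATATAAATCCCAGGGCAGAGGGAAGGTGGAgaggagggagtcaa
The first stretch is chr8:4105765-4106014 on the minus strand and the second chr8:4134486-4134735 on the plus strand. RefSeq places both starts inside the gene spans given above. The stretch of Cd209g therefore lies wholly within its span, and that of Cd209f lies partly within its own. For the other 14 pairs of members, the longest run that was identical was 7 to 12 bases. A search of both strands of the 250 bases for 4 short motifs found TGANTCA, the form that AP-1 proteins bind, in the shared run at 83 bases before the start of Cd209f and at 97 bases before that of Cd209g, and TATAAA at 29 and at 43 bases. Of 32851 promoters of the same length, 6.75% held TGANTCA and 12.4% held TATAAA. The E-box CANNTG, which E proteins bind when they are not held by ID proteins such as ID3, was found in neither, while 66.2% of promoters held it. GAGGAA, part of the motif of the macrophage factor PU.1, was also in neither and in 23.3% of promoters. Motifs of ELK1, the other factor whose binding the paper describes ID3 as buffering, were not searched for.

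The transcripts were alike as well. Over 1157 aligned bases, the longest protein-coding transcripts of Cd209f (1186 bases) and Cd209g (1169 bases) were 92.1% identical, with a run of 416 identical bases. Of the windows of 100 bases, which is the read length, 29.2% of those of Cd209f and 29.6% of those of Cd209g were found in the other gene. No window of the other 4 members was found in another Cd209 gene or in Cd207. How reads that fit both genes were counted is not given in the sources used here, so that the split of reads between Cd209f and Cd209g is uncertain.

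Levels between genes are compared per kilobase of the longest coding transcript. Cd207 and Cd209f had the highest levels of the 6 in all 6 groups. In tumour-free TIM4+CD206+ KCs, the level per kb (log2, mean ± SD, n = 3) was 11.87 ± 0.70 for Cd207, 11.39 ± 0.51 for Cd209f, 8.61 ± 0.78 for Cd209g, 7.80 ± 0.21 for Cd209a, 6.16 ± 0.43 for Cd209d and 5.93 ± 0.70 for Cd209b. Ranges across the samples overlapped between Cd207 and Cd209f, between Cd209g and Cd209a, and between Cd209d and Cd209b. Within each sample Cd209g was above Cd209a per kb, while the order in the other pairs changed between samples. Differences between genes were not tested. With tumour, Cd209g moved from place 3 to place 5 in this order, at 5.80 ± 0.15 per kb. Its range there overlapped that of Cd209d, and Cd209a stood at 8.21 ± 0.03.

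In tumour-free TIM4+CD206hi KCs, the ranges of Cd209f (11.11 ± 0.19 per kb, n = 3) and Cd207 (10.65 ± 0.40) overlapped at the top of the order. Within each sample Cd209f was above Cd207 per kb. Cd209g followed at 9.07 ± 0.28, and Cd209b, Cd209a and Cd209d lay close together at 8.10 ± 0.26, 7.95 ± 0.81 and 7.55 ± 0.38, each overlapping the next. In Id3 f/f KCs the order was Cd209f (11.73 ± 0.41 per kb, n = 3), Cd207 (11.03 ± 0.30) and Cd209g (8.83 ± 0.47), and no neighbours overlapped. Cd209b, Cd209a and Cd209d were at 3.54 ± 0.01, 3.11 ± 0.04 and 2.73 ± 0.03 per kb there. Their mean deposited values, to which the filter on low values of 3.32 applies, were 4.57, 3.67 and 2.61. The tables were normalized separately, so that these differences between settings were not tested.

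**Figure D1:**
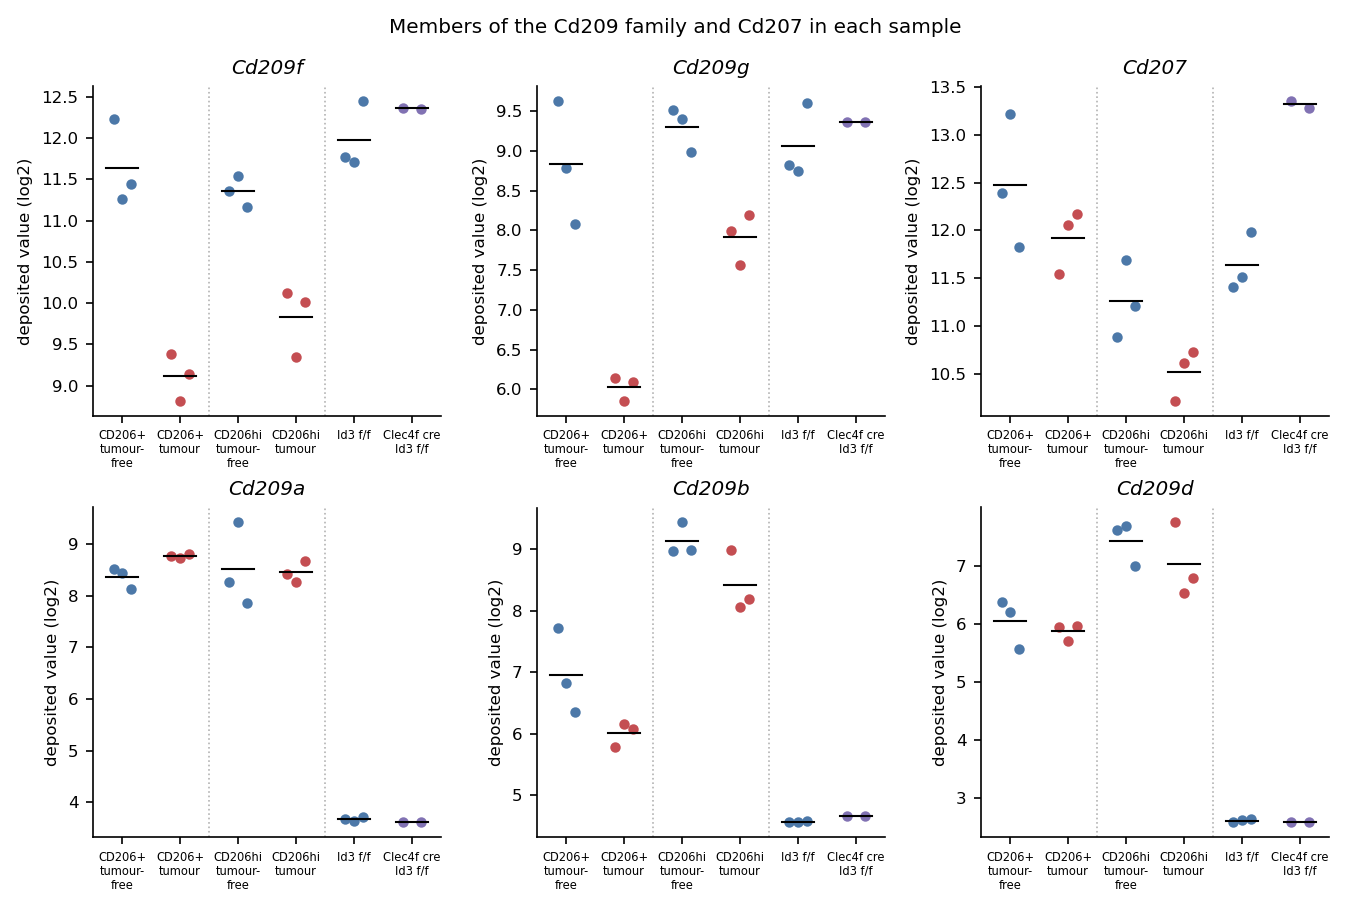
Deposited value (log2, vertical axis) of each member in each sample (points) with the group mean (bar), for the 6 groups; dotted lines separate the 3 tables, which were normalized separately. Cd209f and Cd209g are lower in all tumour samples than in any tumour-free sample of the same subset, Cd207 is highest in its table in both samples with deleted Id3 (13.28 and 13.35), and Cd209a, Cd209b and Cd209d have low values, 2.57 to 4.67, in the last table.

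Cd209g was the gene for which the tumour contrast was chosen. In TIM4+CD206+ KCs its values were 9.63, 8.79 and 8.08 in the tumour-free samples and 6.15, 5.85 and 6.09 in the tumour-bearing samples. The tumour samples were close together and all below the lowest tumour-free sample, and the means differed by -2.80 (SE 0.38), a ratio of 0.143 of tumour-bearing to tumour-free on a linear scale. Its values in TIM4+CD206hi KCs were 9.51, 9.41 and 8.98 without tumour and 7.99, 7.57 and 8.19 with tumour. The groups again did not overlap, and the means differed by -1.38 (SE 0.25), a ratio of 0.383. No test is given for these changes.

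Cd209f, the near copy with the higher level, followed the same pattern. In TIM4+CD206+ KCs it was 12.22, 11.26 and 11.44 in tumour-free and 9.39, 8.82 and 9.15 in tumour-bearing samples. All tumour samples lay below all tumour-free samples, and Cd209f fell by 2.52 (SE 0.28, 95% interval -3.17 to -1.88; limma, adjusted p = 0.0022). The values in TIM4+CD206hi KCs were 11.35, 11.54 and 11.16 without and 10.12, 9.35 and 10.02 with tumour. It fell by 1.53 (SE 0.24, 95% interval -2.10 to -0.95; limma, adjusted p = 0.010) and the groups did not overlap. Cd209f shares sequence with Cd209g, so that its change is not independent of the one that chose the list. The call in TIM4+CD206hi KCs rested on the first tumour-free TIM4+CD206hi sample, without which the difference was the same, -1.53, and the adjusted p was 0.055.

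Cd209f stood above Cd209g in all samples, by a step that varied most in tumour-free TIM4+CD206+ KCs (2.60, 2.47 and 3.36). The difference of Cd209f minus Cd209g within a sample (log2, mean ± SD) was 2.81 ± 0.48 in tumour-free and 3.09 ± 0.14 in tumour-bearing TIM4+CD206+ KCs (n = 3 each), and 2.05 ± 0.18 and 1.91 ± 0.19 in TIM4+CD206hi KCs (n = 3 each). It was 2.92 ± 0.06 with intact (n = 3) and 2.99 ± 0.01 with deleted Id3 (n = 2). The ranges of the tumour-free and tumour-bearing samples overlapped in both subsets. Over the 17 samples, centred on the mean of each table, Cd209g was the gene most like Cd209f of 12222 genes tested in all tables (Pearson r = 0.98), and Cd209f was the most like Cd209g. The next were Gimap3 (r = 0.96 with Cd209f and 0.95 with Cd209g), Cyp2d10 (0.95 with Cd209f) and Man2b1 (0.95 with Cd209g). Samples of a table share their normalization, Cd209f and Cd209g share sequence, and the tumour groups are among these samples, so that these values are a description.

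**Figure D2:**
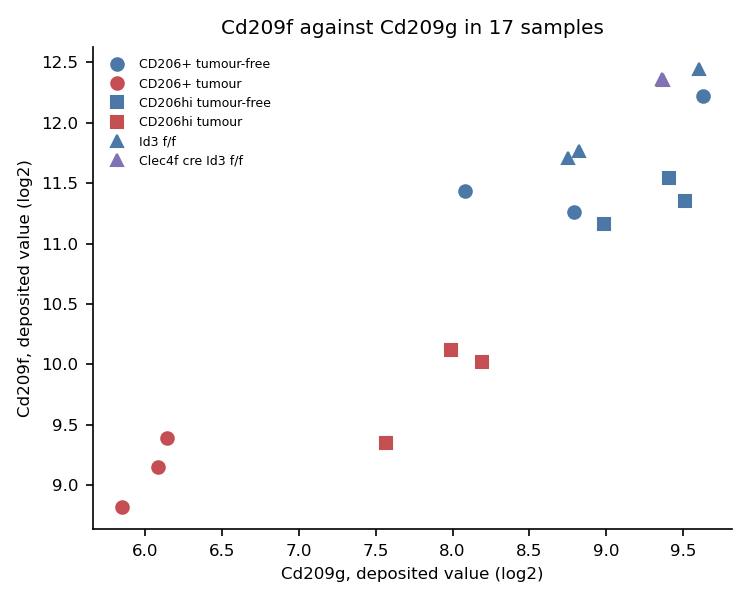
Cd209f (vertical axis) against Cd209g (horizontal axis), deposited log2 values in the 17 samples; circles are TIM4+CD206+ KCs, squares TIM4+CD206hi KCs and triangles the KCs of the Id3 comparison, with tumour-bearing samples in red. Tumour-bearing TIM4+CD206+ KCs lie at the lower left, with Cd209g from 5.85 to 6.15, and tumour-bearing TIM4+CD206hi KCs between them and the rest.

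Cd209b, the SIGNR1 gene, was lower on average with tumour and did not pass the test. In TIM4+CD206+ KCs it was 7.72, 6.82 and 6.35 without and 5.78, 6.16 and 6.08 with tumour. The groups did not overlap, but the first tumour-free sample stood well above the others, and the difference was -0.95 (SE 0.36, 95% interval -1.77 to -0.13; limma, adjusted p = 0.22), or -0.57 without that sample. Cd209b in TIM4+CD206hi KCs was 8.96, 9.43 and 8.99 without and 8.98, 8.06 and 8.19 with tumour, a difference of -0.72 (SE 0.29, 95% interval -1.41 to -0.02; limma, adjusted p = 0.22), and the groups overlapped at the first tumour sample. Cd209b correlated with Cd209f and Cd209g over the 17 centred samples (r = 0.83 and 0.84), while the genes most like it were Dpyd, Masp2 and Gm4952 (r = 0.90, 0.89 and 0.87). In the Id3 comparison Cd209b only ranged from 4.56 to 4.67. These correlations therefore rest mainly on the samples of the tumour comparisons and are a description.

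Cd209d and Cd209a showed no such drop. Cd209d, the SIGNR3 gene, was 6.36, 6.20 and 5.56 in tumour-free and 5.94, 5.71 and 5.96 in tumour-bearing TIM4+CD206+ KCs, with overlapping groups and a difference of -0.17 (95% interval -0.78 to 0.44; limma, adjusted p = 0.83). The minor subset had 7.61, 7.68 and 7.0 without and 7.74, 6.54 and 6.79 with tumour, a difference of -0.41 (95% interval -1.27 to 0.45; limma, adjusted p = 0.54). Without 1 sample these differences ranged from -0.41 to -0.0075 and from -0.77 to -0.16. The intervals do not show that Cd209d stayed the same.

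Cd209a, the gene of CIRE, was 8.52, 8.44 and 8.13 in tumour-free and 8.77, 8.74 and 8.81 in tumour-bearing TIM4+CD206+ KCs. It was the only member with a higher mean in that comparison, with groups that did not overlap and a difference of 0.41 (95% interval -0.08 to 0.89; limma, adjusted p = 0.39). Cd209a in TIM4+CD206hi KCs was 8.27, 9.42 and 7.86 without and 8.42, 8.26 and 8.68 with tumour. The tumour samples lay within the range of the tumour-free samples, and the difference of -0.06 (95% interval -1.0 to 0.88; limma, adjusted p = 0.94) turned to 0.39 without the second tumour-free sample, whose value was the highest, and to 0.03 without the second tumour sample. The summed level of 6 monocyte markers was 13.55 to 14.86 without tumour and 15.15 to 15.22 with tumour in TIM4+CD206+ KCs, and that of 10 dendritic cell markers was 11.63 to 12.06 and 12.09 to 12.31. Of these dendritic cell markers 5 had a higher and 5 a lower mean with tumour, with a median difference of -0.02, and 1, Cd24a, was called. In TIM4+CD206hi KCs the monocyte sum was 13.97 to 14.41 without and 14.91 to 15.02 with tumour. The dendritic cell sum there was 13.97 to 14.51 without and 13.66 to 13.79 with tumour. The part of these cells in the values of Cd209a was not tested. The genes most like Cd209a over the centred samples were Lyz1, Fam20a and Slpi (r = 0.94, 0.92 and 0.92). Cd209a only ranged from 3.61 to 3.72 in the Id3 comparison, so that these values rest mainly on the tumour comparisons.

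Cd207 was lower on average with tumour in both subsets without passing the test. In the main subset its values were 12.39, 13.22 and 11.82 in tumour-free and 11.55, 12.05 and 12.18 in tumour-bearing samples, so that the groups overlapped (difference -0.55, 95% interval -1.33 to 0.23; limma, adjusted p = 0.48). Without the second tumour-free sample, the highest, that difference was -0.18, without the third it was -0.88 and without the first tumour sample -0.36. The values of Cd207 in TIM4+CD206hi KCs were 10.88, 11.69 and 11.21 without and 10.22, 10.61 and 10.73 with tumour. Those groups did not overlap, and the difference was -0.74 (SE 0.25, 95% interval -1.33 to -0.14; limma, adjusted p = 0.15).

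Cd209g chose the list and is left out of the counts of calls with tumour. Of the other 5 members, 1, Cd209f, was called in TIM4+CD206+ KCs, lower, where 3.54% of the 13233 genes tested were called, 2.55% higher and 0.998% lower. With the replicate number as a block, a pairing that the labels do not state, 1026 of the 13233 genes were called in place of 469. Of the 5 members, Cd209f was again the one called. Groups did not overlap for 4 of all 6 members, 3 lower, Cd209g included, and 1 higher, and for 23.4% of all genes tested, 10.5% lower and 12.9% higher. The median difference of the members was -0.75, and that of all genes tested 0.02. In TIM4+CD206hi KCs Cd209f was again the 1 member called of 5, lower (0 without the first tumour-free sample), where 7.23% of 14561 genes were called, 5.21% higher and 2.03% lower. There, groups did not overlap for 3 of all 6 members, Cd209g included and each lower, and for 30.7% of genes, 15.2% lower and 15.6% higher, and the median difference was -0.73 against 0.03 for all genes tested. Since the list was picked for a change in this contrast, nothing is read from these counts. Whether the tumour change of any member differed between the subsets was not tested, as the subsets were normalized in separate tables.

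**Figure D3:**
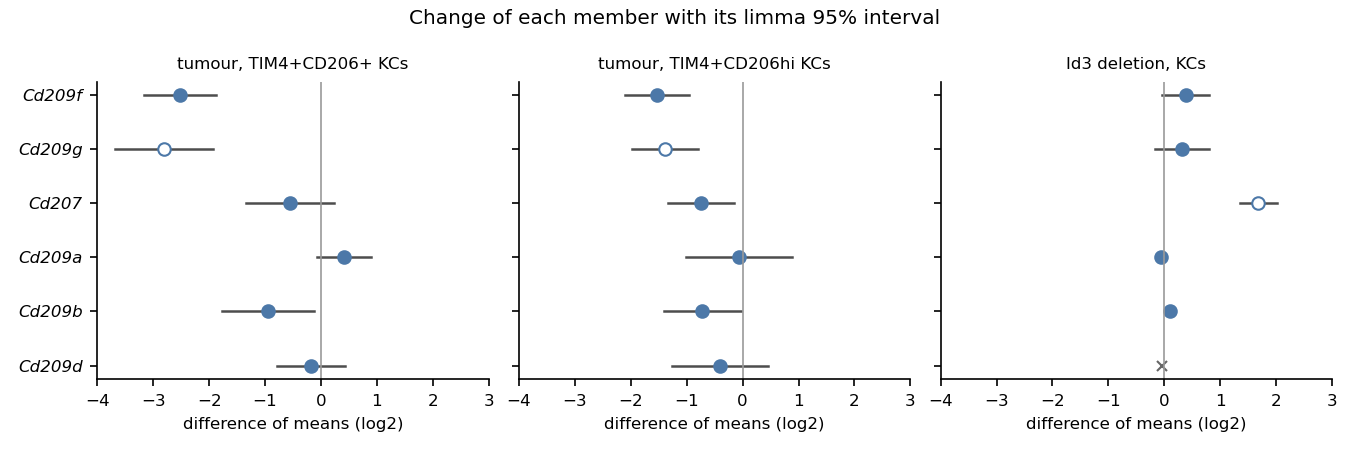
Difference of group means (log2, horizontal axis; tumour-bearing minus tumour-free, or Clec4f cre Id3 f/f minus Id3 f/f) for each member (rows) in the 3 comparisons, with the 95% interval from limma as a line; open circles are the changes that chose the list, and the cross is Cd209d, which was under the filter on low values in the last table. The lines of the open circles describe spread only and are no test of the changes that chose the list. Cd209f and Cd209g stand at -2.52 and -2.80 in TIM4+CD206+ KCs and at -1.53 and -1.38 in TIM4+CD206hi KCs, and Cd207 at 1.68 with Id3 deletion.

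Other genes of the same stretch of chromosome 8 were examined beside the members. Within 200 kb on either side of the lectin cluster, 21 other genes were tested in TIM4+CD206+ KCs, with a median difference of 0.05, and 1 was called, Mcemp1, which was higher. In TIM4+CD206hi KCs 22 other genes were tested, with a median difference of 0.12, and 1 was called higher, Camsap3, and 2 lower, Fcer2a and Clec4g. Of the Cd209 genes that are no members, Cd209e, the SIGNR4 gene, had low values of 3.96 to 4.69 and 3.35 to 5.49 in the 2 tables and was not called, and Cd209c, the SIGNR2 gene, was under the filter in all tables. Among all genes tested, 2.55% were called higher and 0.998% lower in the main subset, and 5.21% and 2.03% in the minor subset. Mcemp1 and Camsap3 are named as the called neighbours, after their values were seen.

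Fcer2a was 8.62, 9.53 and 8.77 in tumour-free and 8.03, 7.55 and 7.89 in tumour-bearing TIM4+CD206+ KCs, a difference of -1.15 (limma, adjusted p = 0.081, and 0.034 with the block). The minor subset had Fcer2a at 8.35, 8.30 and 8.55 without and 7.01, 7.08 and 7.48 with tumour, and it fell by 1.21 (limma, adjusted p = 0.017). This call was lost without the first tumour-free, the first tumour or the second tumour sample (adjusted p = 0.059, 0.11 and 0.11). The summed level of 5 B cell markers, among which CD23 is known to be expressed, was 13.09 to 13.17 without and 12.00 to 12.19 with tumour in TIM4+CD206+ KCs, and 11.77 to 11.98 and 10.89 to 11.00 in TIM4+CD206hi KCs. The part of B cells in the values of Fcer2a was not tested.

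Clec4g was at very unequal levels of 12.47, 9.19 and 11.66 in tumour-free and 9.96, 9.70 and 11.09 in tumour-bearing TIM4+CD206+ KCs (difference -0.86; limma, adjusted p = 0.65). It was -0.17 without the first tumour-free sample and -1.81 without the second, whose value was the lowest (limma, adjusted p = 0.94 and 0.040). The minor subset had Clec4g at 16.09, 15.74 and 16.12 without and 14.95, 15.17 and 15.14 with tumour, and it fell by 0.90 (limma, adjusted p = 0.024). The call was lost without the first tumour-free sample or any tumour sample (adjusted p = 0.089 to 0.15). The endothelial marker sum, of which Clec4g is part, moved from 17.87 to 18.46 to 17.18 to 17.50 in these samples, and its part in the values of Cd209b and Cd209d, whose values were higher in this table, was not tested.

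**Figure D4:**
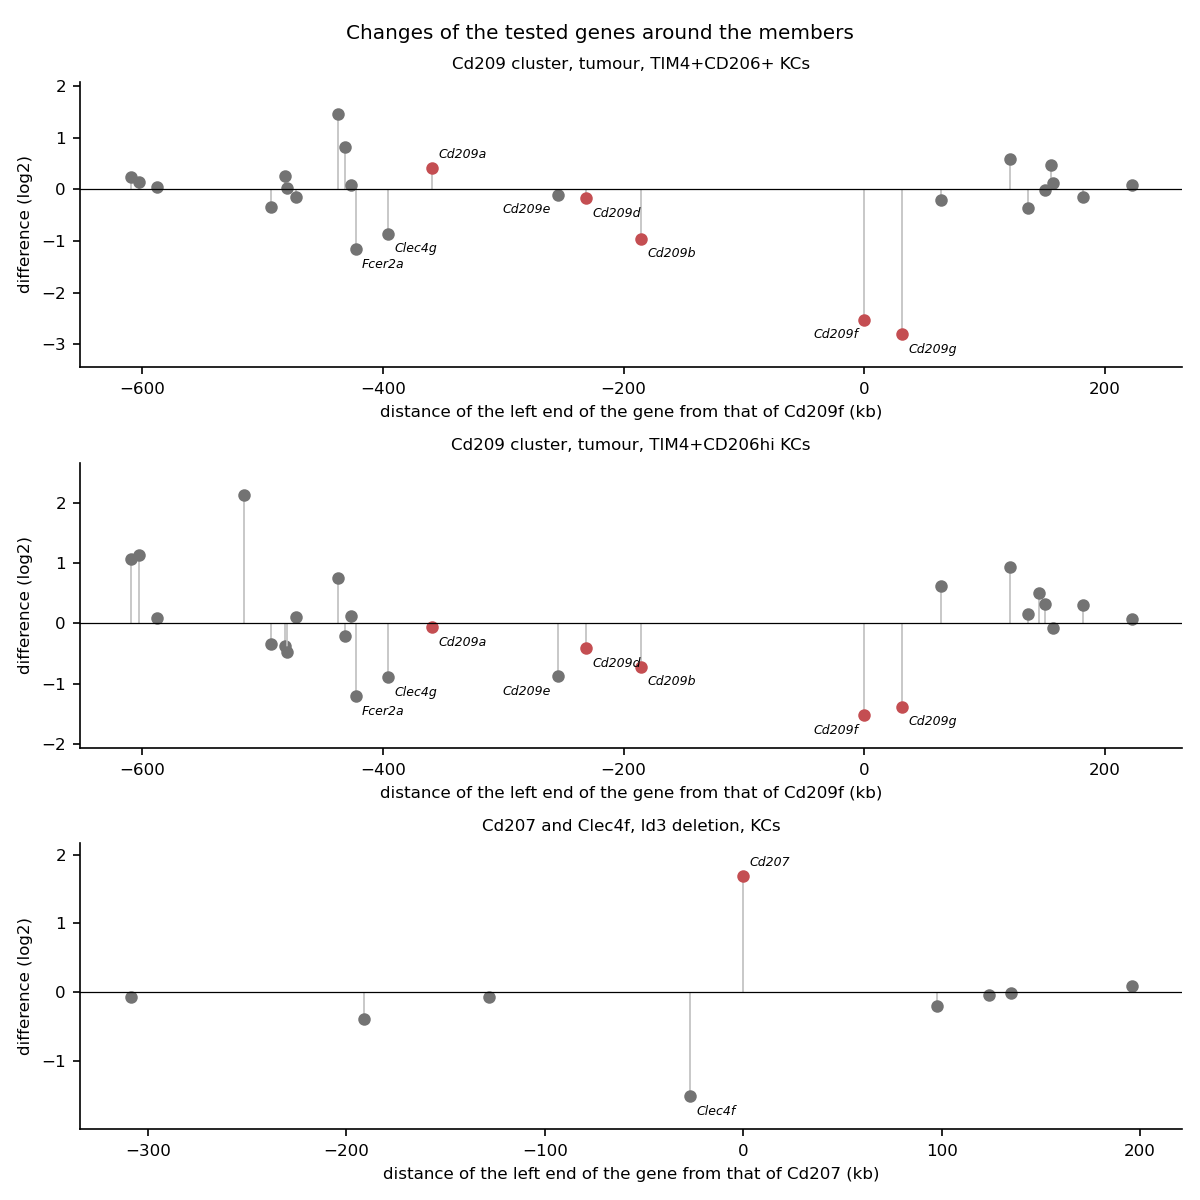
Difference of group means (log2, vertical axis) of the tested genes against the distance of their left end from that of Cd209f or Cd207 (kb, horizontal axis), with members in red and other genes in grey. In the upper panels Cd209f and Cd209g are the lowest points, and in the lowest panel Cd207 (1.68) and Clec4f (-1.52) point in opposite directions between neighbours that lie between -0.39 and 0.08.

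Other sugar-binding receptors of the same structural group did not move as one. Of 17 other group II C-type lectins, 16 were tested in TIM4+CD206+ KCs, and 4 were called higher and 0 lower. Among all genes tested there, 2.55% were called higher and 0.998% lower. The replicate block called 617 of the 13233 genes higher and 409 lower. With the replicate block the same 4 were called higher and 3 lower, which were Asgr1 (-1.17; limma, adjusted p = 0.085 and 0.040 with the block), Clec4a1 (-1.01; 0.10 and 0.0064) and Fcer2a. The 4 higher genes were the galactose-type lectin gene Mgl2 (1.80; limma, adjusted p = 0.010), the scavenger receptor gene Colec12 (1.62; limma, adjusted p = 0.032), Clec4d (1.58; limma, adjusted p = 0.0079) and the Mincle gene Clec4e (1.77; limma, adjusted p = 0.0044), and the median difference was -0.12. Colec12 was not called without the third tumour-free or any tumour sample (adjusted p = 0.065 to 0.14), Mgl2 not without the second or the third tumour sample (0.058 and 0.057), and Clec4d not without the third tumour sample (0.051). The count of 4 was 1 without the third tumour sample, 2 without the second tumour sample and 8 without the second tumour-free sample. In TIM4+CD206hi KCs 1 of 16 was called higher, Colec12 (0.94; limma, adjusted p = 0.020, but 0.054 with median centring and 0.076 to 0.13 without the first tumour-free or any tumour sample), and 3 lower, which were Clec4g, Fcer2a and the asialoglycoprotein receptor gene Asgr1 (-1.56; limma, adjusted p = 0.0053), a gene known from hepatocytes. The median difference was -0.41, and among all genes tested there 5.21% were called higher and 2.03% lower. The count of 4 became 1 without the first or the second tumour sample, 2 without the third tumour sample or the first tumour-free sample, and 8 without the second tumour-free sample. Of the mannose receptor family, Mrc1, which encodes the sort marker CD206, was not called in either subset (-0.26 and -0.65; limma, adjusted p = 0.63 and 0.26). Without the second tumour-free TIM4+CD206hi sample it was called lower there (-0.97; limma, adjusted p = 0.011), without the third it was -0.39, and in the main subset it was -0.07 and -0.47 without the first or the second tumour-free sample. Pla2r1 was called lower in TIM4+CD206hi KCs (-1.59; limma, adjusted p = 0.018, and 0.091 and 0.088 without the first or second tumour sample).

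The deletion was checked first in the Id3 comparison. Id3, which encodes the inhibitor of E proteins, was 12.58, 12.46 and 12.82 in Id3 f/f KCs against 9.83 and 9.82 in Clec4f cre Id3 f/f KCs, lower in both (difference -2.80; limma, adjusted p = 1.40e-06). Xist was 6.33 to 6.38 in the first group and 9.76 to 9.84 in the second, while the Y-linked Ddx3y was 9.43 to 9.46 and 7.0 to 7.01, so that sex, the cre allele and Id3 deletion cannot be told apart in these samples.

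Cd207 was the gene for which this contrast was chosen. It was 11.41, 11.51 and 11.98 in Id3 f/f KCs against 13.35 and 13.28 in Clec4f cre Id3 f/f KCs. Both deleted samples lay above all controls by more than the range of the controls, and the means differed by 1.68 (SE 0.15), a ratio of 3.21 on a linear scale, given without a test. Per kilobase it thereby stood above Cd209f, at 12.71 ± 0.05 against 12.11 ± 0.004 (n = 2).

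The neighbour Clec4f moved the other way. It was 17.59, 17.62 and 17.71 in Id3 f/f KCs and 16.13 and 16.11 in those with deleted Id3, and it fell by 1.52 (SE 0.06; limma, adjusted p = 1.80e-06). Of 8 genes other than Cd207 tested within 200 kb on either side of the pair, 2 were called lower, Clec4f and Dguok, and the median difference was -0.07. Among all genes tested with Id3 deletion, 3.08% were called higher and 3.37% lower. Clec4f carries the cre allele in the mice with deleted Id3. The part of that allele in the values of Clec4f itself and of Cd207 cannot be told apart from that of Id3 deletion. The 250 bases before the start of Cd207 (RefSeq, GRCm38.p6, chr6:83677858-83678107, minus strand) are shown with the 1 match to CANNTG, at 240 bases before the start, and the 1 match to TGANTCA, at 7 bases before it, in capitals.
Cd207: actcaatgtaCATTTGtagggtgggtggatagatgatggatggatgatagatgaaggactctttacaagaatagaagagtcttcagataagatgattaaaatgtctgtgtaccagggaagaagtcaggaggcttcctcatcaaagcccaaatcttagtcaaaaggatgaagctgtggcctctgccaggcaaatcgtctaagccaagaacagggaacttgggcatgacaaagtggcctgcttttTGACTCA
One GAGGAA match was at 118 bases before the start. Across these samples and those of the tumour tables, the genes most like Cd207 were Akt1, Tbc1d2b and Fyn (r = 0.82, 0.79 and 0.79), and its correlation with Cd209f and Cd209g was 0.46 and 0.48.

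Cd209f and Cd209g were not called with Id3 deletion. Cd209f was 11.76, 11.71 and 12.45 in Id3 f/f KCs against 12.36 and 12.36 in Clec4f cre Id3 f/f KCs (difference 0.38, 95% interval -0.04 to 0.80; limma, adjusted p = 0.25). Cd209g was 8.82, 8.75 and 9.60 against 9.36 and 9.37 (difference 0.31, 95% interval -0.17 to 0.79; limma, adjusted p = 0.44). In both genes the third Id3 f/f sample was above the deleted samples and the others were below them. Without that sample the differences were 0.62 and 0.58 (limma, adjusted p = 0.00021 and 0.0018).

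Cd209a, Cd209b and Cd209d had low values in this table. Cd209a was 3.64 to 3.72 in Id3 f/f KCs and 3.61 in both Clec4f cre Id3 f/f samples (difference -0.07; limma, adjusted p = 0.19), Cd209b was 4.56 to 4.58 against 4.66 and 4.67 (difference 0.10; limma, adjusted p = 0.12), and Cd209d was 2.57 to 2.64 against 2.57, under the filter of 3.32 and not tested. Such values hold few reads and are drawn to their mean, so that no change can be read from them. Apart from Cd207, which chose the list and is not counted, 4 members were above the filter and 0 were called (2, Cd209f and Cd209g, without the third Id3 f/f sample, and at an unadjusted p under 0.05 there were 2, Cd209a and Cd209b), where 6.44% of 12833 genes were called, 3.08% higher and 3.37% lower. Groups did not overlap for 4 of all 6 members, 2 higher, Cd207 included, and 2 lower, and for 41.9% of genes, 20.2% higher and 21.7% lower, and since the list was picked for Cd207 nothing is read from these counts.

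Of the 17 other group II C-type lectins, 15 were tested with Id3 deletion, where 3.08% of all genes tested were called higher and 3.37% lower. Clec4a1 (0.44; limma, adjusted p = 0.027) and Clec4b1 (0.55; limma, adjusted p = 0.017), which lie among the Clec4 genes of myeloid cells, were called higher. Neither was called without the first or the second Id3 f/f sample or either deleted sample (adjusted p = 0.077 to 0.29 and 0.056 to 0.21). Clec4f and Clec4g were called lower, the latter from 11.43, 11.47 and 11.96 to 10.76 and 10.88 (difference -0.80; limma, adjusted p = 0.018, but 0.25 and 0.18 without the first or the second deleted sample). Fcer2a (4.16 to 4.31 against 4.19 and 4.20) and Mrc1 (12.80 to 13.27 against 13.05 and 13.06) were not called, but Mrc1 was higher without the third Id3 f/f sample (0.23; limma, adjusted p = 0.044). The count of 4 became 1 without either deleted sample, 2 without the first or the second Id3 f/f sample, and 7 without the third.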

How the data were processed

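RNA of sorted KCs was amplified with SMART-Seq v4 and sequenced as paired-end reads. Per the labels and the methods, the authors aligned reads with STAR 2.7.10a, counted them per gene with HTSeq and used DESeq2; the build is mm10 in the labels. The deposited values are log2 values, in shape like a regularized log transformation, although file and column names call them counts or TPM, and keep no depth. The 3 tables (17 samples, 25124 genes each) were normalized separately, so that tests were made within a table only.

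Genes with a value of at least 3.32 (log2 of 10) in as many samples as the smaller group has were fitted with limma 3.58.1 (R 4.3.3) with a mean-variance trend, with the group as the only term and Benjamini-Hochberg adjustment over all genes tested. Calls have an adjusted p under 0.05, two-sided. The count test planned for count tables could not be used. Fits were tested on simulated data. Alternatives were no filter, a mean of at least log2 of 50, median centring, quantile normalization, no trend, the replicate number as a block, and each sample left out. Same-numbered tumour-free and tumour samples of TIM4+CD206+ KCs deviated together (r = 0.35, 0.56 and 0.15), so that for the lectins of that table the block is given where it changes a call. The labels state no pairing and samples of unlike number were not compared, so that the block is an alternative only. Counts of calls leave out Cd209g with tumour and Cd207 with Id3 deletion, which chose the list.

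Members and lists were chosen with earlier results of these data known. Named are the members, other Cd209 genes, Id3, called genes of the lists of other group II C-type lectins and of the mannose receptor family with Mrc1, lectin genes beside the members, and the 3 genes most like each member tested in all tables. Marker lists are given as the log2 of summed linear values and as calls. Gene positions are those of GRCm38, and upstream bases were read from RefSeq GRCm38.p6.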

Additional observations from a re-analysis of the deposited data

How the results depend on the processing

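Cd209f was called in TIM4+CD206+ KCs under all 12 alternatives, and in TIM4+CD206hi KCs under all but that without the first tumour-free sample. Cd209g with tumour and Cd207 with Id3 deletion chose the list and are not counted here. Of the other members, 1, Cd209f, was under an adjusted p of 0.05 in TIM4+CD206hi KCs. Without the first tumour-free sample there were 0, and without the first or the second tumour sample there was 1. With Id3 deletion 0 of the other members were called. The replicate block there, which drops the unpaired Id3 f/f sample, replicate 3, gave 2, Cd209f and Cd209g, as did leaving out that sample. Numbers of TIM4+CD206hi and Id3 samples did not pair (r from -0.13 to -0.05 and -0.10 to -0.07), and the block moved all calls from 1053 to 909 and from 827 to 2089. The block changed no member call in the tumour tables. In TIM4+CD206hi KCs it ended the calls of Clec4g and Colec12 (adjusted p = 0.086 and 0.073).

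Calls over all genes ranged from 228 to 1018, 579 to 3653 and 17 to 1850 when 1 sample was left out, in the order TIM4+CD206+, TIM4+CD206hi and Id3. The 17 and 19 were without the first or second deleted sample, which leaves 1 sample in that group, assumed to vary like the controls. In TIM4+CD206hi KCs median centring and quantile normalization moved the median of all genes from 0.03 to -0.13 and -0.11, and the split of calls from 758 higher and 295 lower to 704 and 387 and to 664 and 518. With Id3 deletion centring moved it from 395 and 432 to 328 and 550. Filters gave 344 and 358 calls (none and stricter) for 469, 941 and 600 for 1053, and 477 and 1051 for 827.

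Directions that turned were all of small differences without a call. When 1 sample was left out, Cd209e ranged from -0.26 to 0.087 in TIM4+CD206+ KCs and from -0.020 to 0.0051 with Id3 deletion (0.0051 with the block), Cd209a from -0.39 to 0.39 and Mgl2 from -0.38 to 0.055 in TIM4+CD206hi KCs, and Mrc1 from -0.0086 to 0.23 and Colec12 from -0.14 to 0.068 with Id3 deletion. The causes of these changes were not tested. Depth is unknown, so that its part in the low values of Cd209a, Cd209b and Cd209d was not tested.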
